A study of Mus musculus with 11 samples.

Results

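The p53 pathway was examined in mouse B cell lymphomas through 10 genes, namely the tumour suppressor gene Trp53 itself, its regulators Mdm2, Mdm4 and Cdkn2a (the locus that encodes Arf), and 6 genes that p53 is known to activate, Cdkn1a, Trp53inp1, Ccng1, Zmat3, Aen and Sesn2. They were chosen by name, and their probes are the non-control spots of the arrays that carry one of these gene names. The array held 16 such probes of 39429 in all, and 14 of them, at least 1 for each of the 10 genes, were well above background on at least 3 arrays and entered the fits among 20181 genes. Of the 11 tumours, 4 were lymphomas of plasma cells (PCL), 3 of the mantle cell type (MCL) and 4 of the Burkitt type (BL). Every tumour was a mature B cell lymphoma taken from a lymph node of a Black 6 mouse with the genotype c-myc-3'RR/p53+/-, so that the 3 types shared 1 disrupted p53 allele and a c-myc transgene. The transgene is driven by the IgH 3' regulatory region, an enhancer cluster active in B cells. No p53 wild-type tumour and no normal B cell was analysed here, so all comparisons are among tumours of 1 genotype. Ages were not given in the labels.

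In unstressed cells the p53 protein is kept scarce by Mdm2, an E3 ubiquitin ligase, with the help of its relative Mdm4. Arf, made from the Cdkn2a locus when oncogenes such as Myc are active, binds Mdm2 and frees p53, which then activates genes of cell cycle arrest, apoptosis and metabolic control, and Mdm2 itself in a feedback loop. In mouse models of Myc-driven B cell lymphoma, loss of p53 or of Arf is a common event, and tumours that have lost p53 function are known for high Arf. The Cdkn2a locus also encodes the Cdk inhibitor p16Ink4a from another first exon.

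One-colour arrays measured the RNA. All values below are the log2 of the spot's processed signal minus the 75th percentile of its array, so that 0 is the 75th percentile and a difference of 1 is a 2-fold change of signal. A probe's level cannot be set against that of another probe, because probes differ in how well they hybridise. The arrays were alike in quality, with 55.5% to 62.8% of spots well above background, 0 saturated spots and RNA integrity numbers from 8 to 10. Each type occupied 1 slide, so lymphoma type and slide cannot be told apart. No label says whether each mouse gave 1 tumour, so p-values cover only the spread among these arrays, part of which may be technical. The B lineage markers Cd79a and Pax5 were well above background in every tumour. Of the markers listed for single types, Sox11 of mantle cell lymphoma and Mme of Burkitt lymphoma stayed under the filter, and Ccnd1, the cyclin D1 gene of mantle cell lymphoma, was well above background on all 11 arrays. Ccnd1 did not separate MCL from BL, at 1.65 to 2.48 in MCL and 0.74 to 2.67 in BL. It was 1.32 in PCL1 and -1.33, -0.44 and -0.81 in PCL2, PCL3 and PCL4. PCL1 stood apart from the other PCL tumours. The summed signal of 12 macrophage markers, in multiples of the 75th percentile, was 2.73 in PCL1, against 32.8, 14.2 and 20.4 in PCL2, PCL3 and PCL4, with 1.88 to 5.18 in MCL and 3.11 to 9.30 in BL. For 7 plasma cell markers this sum was 36.0 in PCL1 and 70.4, 66.1 and 69.2 in PCL2, PCL3 and PCL4. In MCL it was 30.3 to 45.7 and in BL 33.8 to 40.2. The sum is weighted to bright markers such as Mzb1, and single markers differed. Sdc1, Xbp1, Irf4 and Mzb1 were lower in PCL1 than in the other PCL tumours. Prdm1, at -0.58 in PCL1, was highest there of all 11 tumours. Jchain, at 0.57 in PCL1, was above PCL3 and every MCL and BL tumour. Tnfrsf17, at -4.76 in PCL1, was highest there among the PCL tumours.

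The probes decide what each value can say, so the first 30 of their 60 bases are shown for the genes on which the results turn. Coordinates of probes are given on build mm9, as in the file headers, and each probe is assigned there to spliced transcripts of its gene, so the target is exonic. The Trp53 probe lies on the plus strand at chr11:69404204-69404263. The part of p53 that the disrupted allele lacks is not given in the labels, so the probe's signal does not check the genotype and may include RNA of that allele. Both Cdkn2a probes, at chr4:88920405-88920464 and chr4:88920543-88920602 on the minus strand, are listed under both RefSeq transcripts of the locus. Arf and p16Ink4a RNA therefore cannot be told apart here.
Trp53: ccttagagttaaaggatgcccatgctacag
Mdm2: ggcagcttcagtcccgatttacaataaagt
Cdkn2a, probe used: ggcatgagaaactgagcgaaggcggccgcg
Cdkn2a, other probe: cttctagcgatgctagcgtgtctagcatgt
Cdkn1a: ctaagggagctcacaggacactgagcaatg
Trp53inp1, probe used: gtgtgtttatgggcacaatgttttctctca
Trp53inp1, other probe: aactcctgtcctggtctcagtgaggcgagt
Aen, probe used: aagtcagcttgctcatagtaccagaccatc
Aen, other probe: ttactgggagaagtcagcttgctcatagta
The Mdm2 probe lies at chr10:117126010-117126069 on the minus strand and the Cdkn1a probe at chr17:29237377-29237436 on the plus strand. The Trp53inp1 probes, at chr4:11101174-11101233 and chr4:11092530-11092589 on the plus strand, start 8644 bases apart. The Aen probes, at chr7:86053207-86053266 and chr7:86053197-86053256 on the plus strand, share 50 of their 60 bases, so they are nearly the same measurement. The brighter probe of a gene stood for it.

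Trp53 signal varied widely within the lymphoma types. Trp53 was at -2.28, -0.08, -0.06 and 0.29 in PCL1 to PCL4, at -2.82, -1.13 and -1.37 in MCL1 to MCL3, and at -0.90, -1.99, -1.02 and -0.51 in BL1 to BL4. PCL2, PCL3 and PCL4 were the 3 highest tumours, while PCL1 lay beside the lowest, MCL1 and BL2, so all groups overlapped. The highest tumour, PCL4, had 8.63 times the signal of the lowest, MCL1. The spread within types held 72.6% of the sum of squares of Trp53 over the 11 tumours. With 11 tumours in 3 types, most of this sum lies within types also for a gene whose types do not differ. Trp53 averaged -0.53 ± 1.18 in PCL (SD, n = 4), -1.77 ± 0.91 in MCL (n = 3) and -1.11 ± 0.63 in BL (n = 4). In the limma fit across all genes the difference of PCL minus MCL was 1.24 ± 0.65 (SE; 95% interval -0.21 to 2.69; adjusted p = 0.276). It was 1.82 with an adjusted p of 0.0423 when PCL1 was left out, so this call turns on 1 tumour. PCL minus BL was 0.57 ± 0.60 (adjusted p = 0.67) and MCL minus BL was -0.67 ± 0.65 (adjusted p = 0.665).

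**Figure D1:**
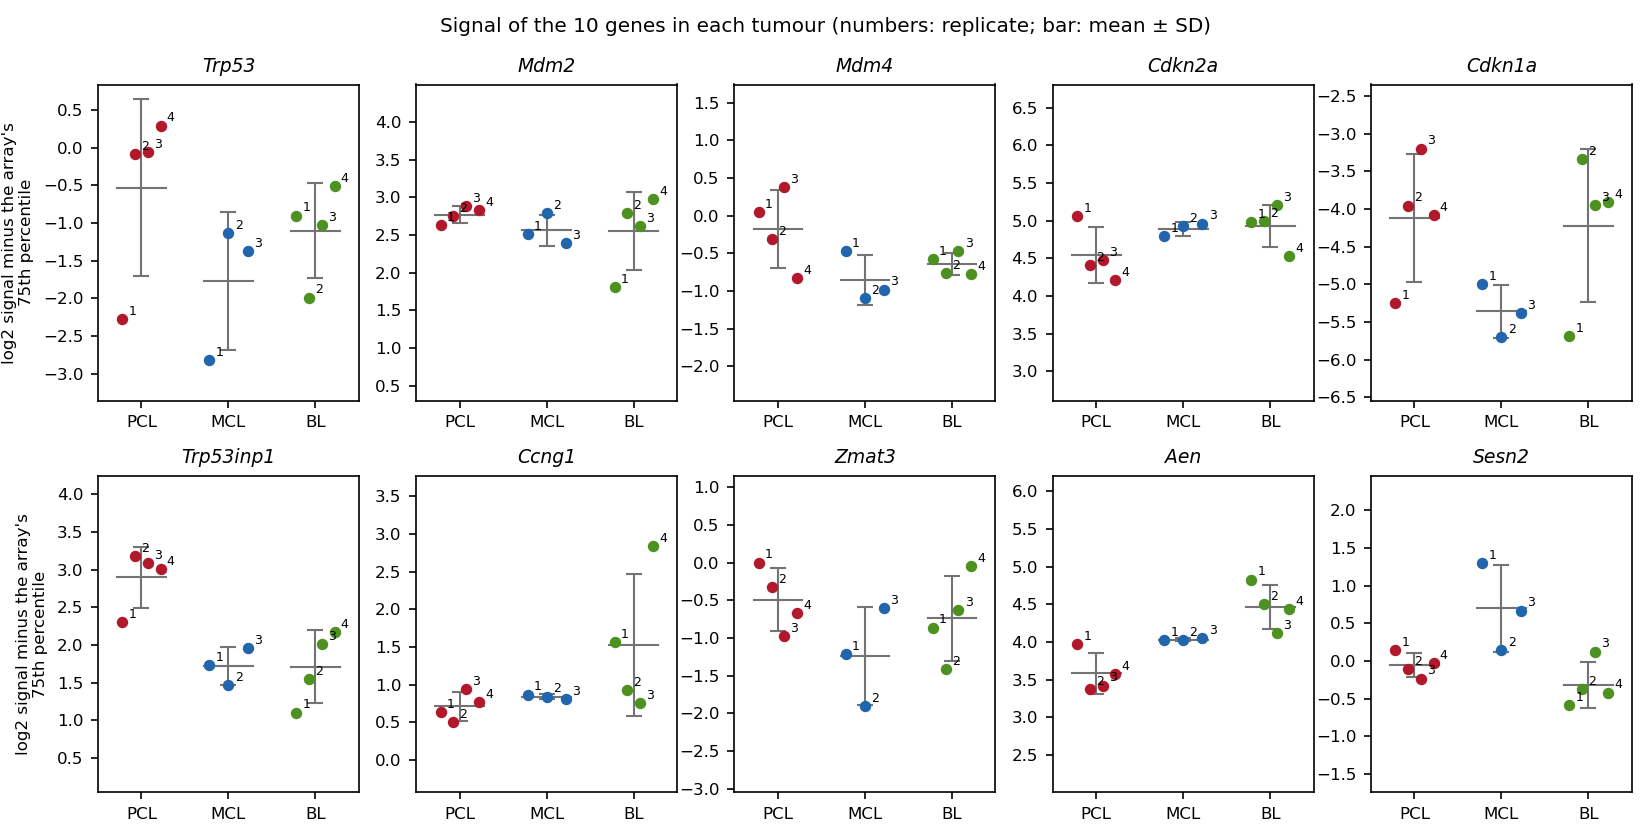
Log2 signal relative to the array's 75th percentile for each of the 10 genes (y axis, all panels spanning the same number of log2 units) in the 4 PCL, 3 MCL and 4 BL tumours (x axis). Points are tumours with their replicate number, and bars give the mean ± SD of a type. Trp53 of PCL1, at -2.28, sits far below the other 3 PCL tumours, and Trp53inp1 of all 4 PCL tumours sits above every MCL and BL tumour.

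Among the regulators of p53, Mdm2 had close means in the 3 types. Mdm2 was at 2.63, 2.75, 2.88 and 2.83 in PCL, at 2.51, 2.79 and 2.39 in MCL, and at 1.82, 2.80, 2.62 and 2.98 in BL. All but BL1 lay within a range of 0.59 log2 units, and the groups overlapped. Mdm2 differed by 0.21 ± 0.26 for PCL minus MCL (adjusted p = 0.674), by 0.22 ± 0.24 for PCL minus BL (adjusted p = 0.686) and by 0.01 ± 0.26 for MCL minus BL (adjusted p = 0.986). The 95% intervals of these differences reached from -0.57 to 0.79, so larger changes of Mdm2 between the type means lie outside them.

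Mdm4, which binds p53 and blocks its activity, had 0.05, -0.31, 0.37 and -0.83 in PCL, against -0.47, -1.09 and -0.98 in MCL and -0.58, -0.76, -0.48 and -0.78 in BL. By this probe PCL1, PCL2 and PCL3 were above all other tumours, and PCL4 was among the lowest. PCL minus MCL was 0.67 ± 0.28 (adjusted p = 0.179). The dimmer Mdm4 probe, 1981 bases away, gave 0.23 ± 0.24 for the same difference (adjusted p = 0.606 in a fit of all kept probes). By the dimmer probe PCL1 and PCL3 were highest, at -1.24 and -1.35. PCL2, at -2.04, was below MCL1 and MCL3, at -1.78 and -1.77. PCL minus BL was 0.47 by both probes, with adjusted p of 0.395 for the brighter probe and 0.315 for the dimmer one.

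Cdkn2a was bright in every tumour. The probe used was at 5.07, 4.41, 4.48 and 4.21 in PCL, at 4.79, 4.93 and 4.96 in MCL, and at 4.98, 4.99, 5.21 and 4.53 in BL. PCL2, PCL3, PCL4 and BL4 were the 4 lowest tumours, and PCL1 was the second highest of all 11. No tumour lacked Cdkn2a signal, and the highest had 2.00 times the signal of the lowest. The difference of PCL minus MCL was -0.35 ± 0.23 (adjusted p = 0.388), that of PCL minus BL was -0.39 ± 0.22 (adjusted p = 0.395) and that of MCL minus BL was -0.03 ± 0.23 (adjusted p = 0.958). The other probe, 138 bases away, was at 0.83, -0.51, -0.64 and -0.51 in PCL, at 0.02, 0.12 and 0.02 in MCL and at -0.09, 0.11, 0.31 and -0.22 in BL, with PCL1 highest and the same 4 tumours lowest.

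The only p53 target called in a pairwise comparison was Trp53inp1, which encodes a nuclear protein of stress-induced cell death and autophagy. Trp53inp1 was at 2.30, 3.18, 3.09 and 3.01 in PCL, against 1.74, 1.46 and 1.96 in MCL and 1.10, 1.55, 2.02 and 2.17 in BL. Every PCL tumour was above every MCL and BL tumour, and MCL and BL overlapped. PCL had 2.26 times the signal of MCL, a log2 difference of 1.18 ± 0.30 (95% interval 0.50 to 1.85; limma, adjusted p = 0.048). This was 1 call among the 10 genes, in a comparison where 6.78% of all tested genes were called. The difference of PCL minus BL was as large, 1.19 ± 0.28, but its adjusted p was 0.0818, and of all genes 0.639% were called there. MCL minus BL was 0.01 ± 0.30 (adjusted p = 0.991). A test of any difference among the 3 types gave an adjusted p of 0.04, where 8.32% of genes were called. The second Trp53inp1 probe was at -1.16, -0.36, -0.25 and -0.48 in PCL, -1.65, -1.15 and -1.60 in MCL and -1.56, -1.79, -1.23 and -1.39 in BL, and differed by 0.91 ± 0.25 for PCL minus MCL (adjusted p = 0.0657 in the fit of all probes).

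The Trp53inp1 call was close to its threshold. It held in 8 of 22 alternative settings, with differences of 1.04 to 1.37 in all 22 and adjusted p of 0.00618 to 0.1405. It was lost when PCL2, PCL3, PCL4, MCL1, MCL2, MCL3, BL2 or BL3 was left out. The macrophage markers were high in PCL2, PCL3 and PCL4 as well, where Trp53inp1 was highest. In PCL1 the summed macrophage signal of 2.73 was inside the MCL range, and Trp53inp1 was 2.30, against 2.17 in BL4, the highest of the MCL and BL tumours. The part of the macrophage signal in the difference was not tested. In such bulk tumour RNA, fewer cells of a type and less RNA per cell cannot be told apart.

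Aen, an exonuclease that p53 induces and that digests DNA during apoptosis, ran the other way. Aen was at 3.98, 3.38, 3.42 and 3.58 in PCL, against 4.03, 4.02 and 4.05 in MCL and 4.83, 4.50, 4.12 and 4.44 in BL. By this probe the 3 types did not overlap, with PCL lowest, MCL between and BL highest. The test of any difference among types gave an adjusted p of 0.046. Pairwise, PCL minus BL was -0.88 ± 0.19 (adjusted p = 0.0681), PCL minus MCL was -0.44 ± 0.21 (adjusted p = 0.224) and MCL minus BL was -0.44 ± 0.21 (adjusted p = 0.31). Without PCL1, the PCL tumour nearest to MCL, PCL minus BL was -1.01 with an adjusted p of 0.0193, and over all settings its adjusted p was 0.0112 to 0.197. The call of any difference held in 8 of 21 other settings and was lost when PCL2, PCL3, PCL4, any 1 MCL tumour, BL1, BL2 or BL4 was left out. The overlapping second probe gave -0.92 ± 0.20 for PCL minus BL (adjusted p = 0.0687). By that probe MCL and BL overlapped, with BL3 at 3.92 inside the MCL range of 3.90 to 3.96.

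Sesn2, a stress-induced inhibitor of mTORC1 signalling, was at 0.14, -0.10, -0.23 and -0.03 in PCL, at 1.29, 0.14 and 0.67 in MCL, and at -0.58, -0.38, 0.13 and -0.42 in BL. MCL1 and MCL3 were the 2 highest tumours, and the lowest MCL value was just above the highest BL value. MCL minus BL was 1.01 ± 0.27 (adjusted p = 0.0578), and its adjusted p was 0.034 without MCL2 and 0.0439 without BL3. PCL minus MCL was -0.76 ± 0.27 (adjusted p = 0.127) and PCL minus BL was 0.26 ± 0.25 (adjusted p = 0.643).

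Counted over the 10 genes, each by the probe used for it, groups did not overlap for 2 genes between PCL and MCL (Trp53inp1 and Aen). They did not overlap for 2 between PCL and BL (the same genes) and for 2 between MCL and BL (Aen and Sesn2). Over all tested genes the groups did not overlap in 23%, 11.1% and 17.6% of these comparisons in turn. No member was called by limma in PCL minus BL or in MCL minus BL, where 6.44% of all genes were called. At an unadjusted p under 0.05 there were 3 members in PCL minus MCL (Mdm4, Trp53inp1 and Sesn2), against 24.3% of all genes. There were 2 members in PCL minus BL (Trp53inp1 and Aen), against 17.6%, and 1 in MCL minus BL (Sesn2), against 18.5%. With 10 genes these counts are near the background of each comparison.

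**Figure D2:**
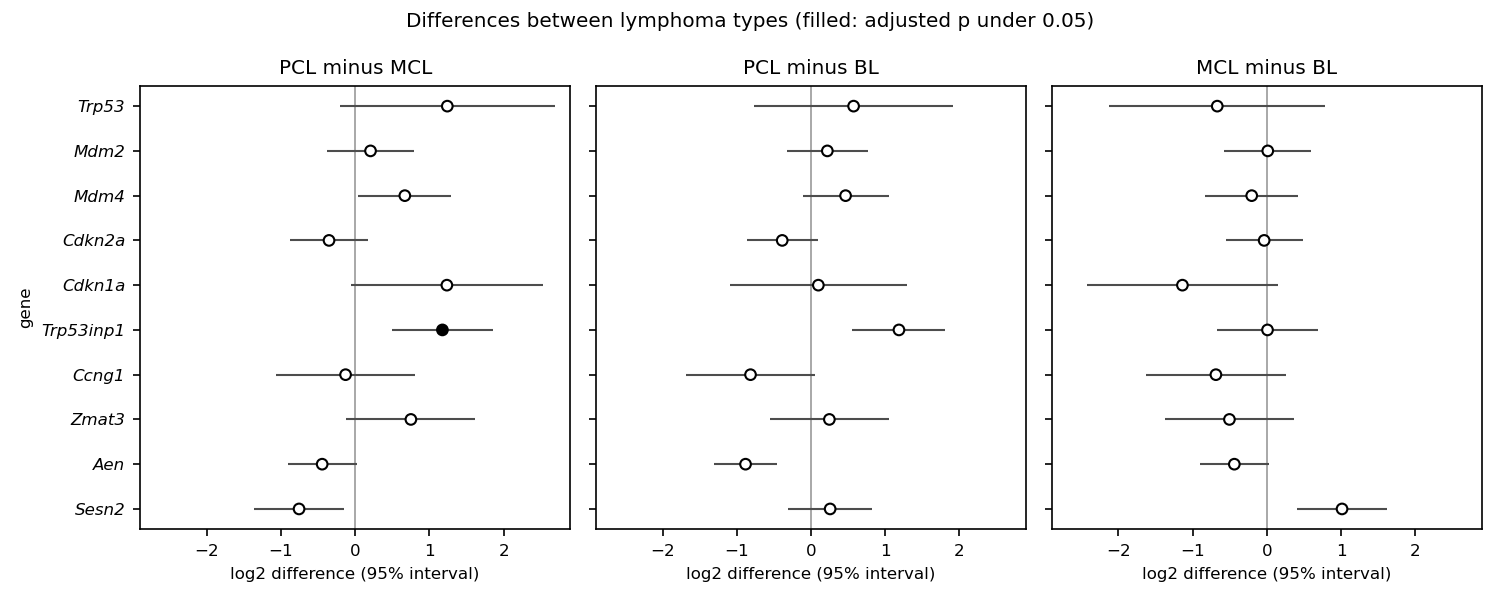
Log2 differences (x axis) of the 10 genes (y axis) for PCL minus MCL, PCL minus BL and MCL minus BL from the limma fit, with 95% intervals. The filled point, Trp53inp1 in PCL minus MCL at 1.18, is the only one with an adjusted p under 0.05.

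Cdkn1a, the gene of the Cdk inhibitor p21 and the classical p53 target of cell cycle arrest, was dim in all tumours. Its brightest probe, printed in 10 spots per array, was well above background on 10 arrays, and the other 2 Cdkn1a probes were so on none. Cdkn1a was at -5.25, -3.95, -3.20 and -4.08 in PCL, at -4.99, -5.70 and -5.38 in MCL, and at -5.69, -3.34, -3.94 and -3.91 in BL. It was low in PCL1, in BL1 and in all 3 MCL tumours, of which MCL2 was not well above background, and higher in the other 6 tumours. PCL minus MCL was 1.24 ± 0.58 (adjusted p = 0.224), PCL minus BL 0.10 ± 0.54 (adjusted p = 0.95) and MCL minus BL -1.14 ± 0.58 (adjusted p = 0.349). The 2 faint probes lie elsewhere in the gene, and 1 of them is listed under a transcript that the bright probe also covers.

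Ccng1, a cyclin G gene that feeds back on Mdm2, stood out in 1 tumour. Ccng1 was at 0.63, 0.50, 0.94 and 0.77 in PCL, at 0.87, 0.84 and 0.81 in MCL, and at 1.56, 0.93, 0.76 and 2.84 in BL. BL4 was more than 1 log2 unit above every other tumour, and BL1 came next. PCL minus BL was -0.81 ± 0.39 (adjusted p = 0.315), and it was -0.38 without BL4.

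Zmat3, an RNA-binding zinc finger gene, was at 0.00, -0.32, -0.97 and -0.67 in PCL, at -1.21, -1.90 and -0.60 in MCL, and at -0.86, -1.41, -0.63 and -0.04 in BL. PCL1 and BL4 were highest, MCL2 was lowest, and all groups overlapped. The largest difference, PCL minus MCL, was 0.75 ± 0.39 (adjusted p = 0.27).

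The targets were then taken tumour by tumour, as the number of the 7 (Mdm2 and the 6 others) above their own mean over the 11 tumours. In the 6 tumours with Trp53 above its mean this number was 4, 3 and 4 in PCL2, PCL3 and PCL4 and 2, 4 and 6 in BL1, BL3 and BL4. In the 5 tumours with Trp53 below its mean it was 3 in PCL1, 1, 2 and 3 in MCL1, MCL2 and MCL3 and 3 in BL2. The numbers reached higher in the first set, and both sets shared values of 2 and 3. The median of the 7 targets, each centred on its own mean, was 0.12 in PCL4, 0.41 in BL4 and -0.64 in BL1, where Trp53 was -0.90 and near its mean. BL1 was the lowest tumour for Mdm2, Trp53inp1 and Sesn2, and the highest for Aen.

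**Figure D3:**
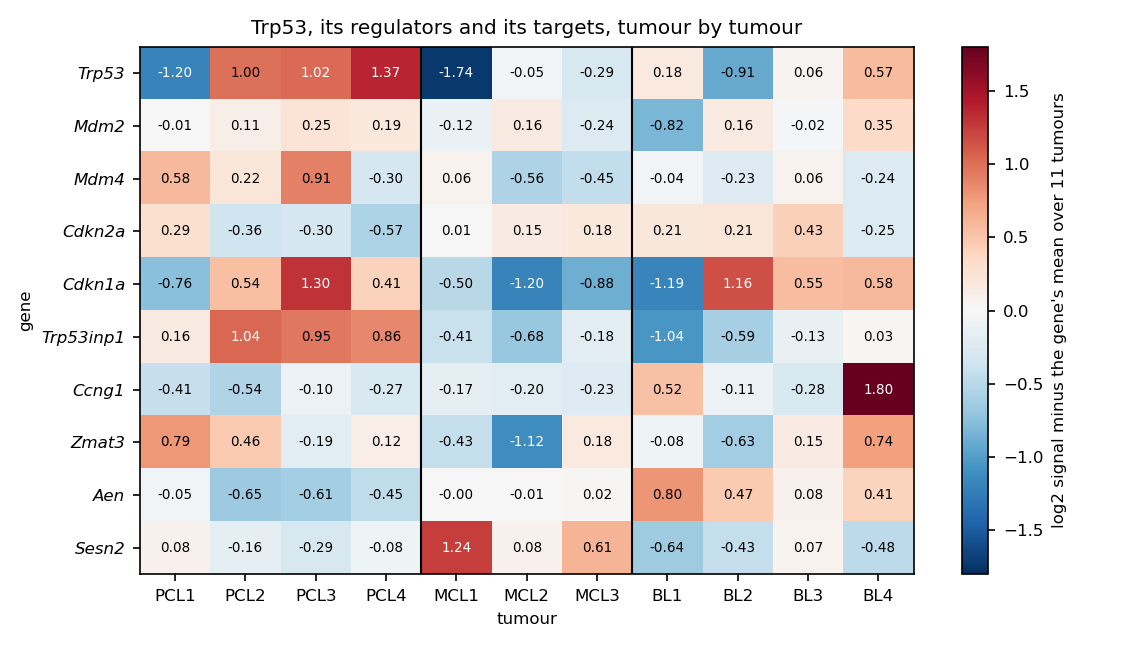
Log2 signal of each gene (rows) minus its own mean over the 11 tumours (columns, PCL, MCL and BL from left to right). Trp53 is highest in PCL4 and lowest in MCL1, and the largest single deviation is Ccng1 in BL4.

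Correlations of Trp53 with the other 9 genes over the 11 tumours were tested by permutation of the tumours. None passed after adjustment for the 9 relations. The strongest was negative, with Cdkn2a (Pearson r = -0.69, permutation p = 0.0215, adjusted p = 0.194; Spearman rho = -0.66, permutation p = 0.031, adjusted p = 0.256). The 4 tumours with the most Trp53, PCL2, PCL3, PCL4 and BL4, were the 4 with the least Cdkn2a. With values centred within each type the r was -0.64 (exact permutation p = 0.1, adjusted p = 0.361), and without MCL1 and PCL4, the 2 tumours farthest from the Trp53 median, it was -0.78. When MCL1 alone was left out, r was -0.84 and its adjusted p was 0.0279.

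Trp53inp1 followed with r = 0.61 (permutation p = 0.0483, adjusted p = 0.2; Spearman rho = 0.55, permutation p = 0.0865, adjusted p = 0.256). Its r was 0.52 within types (exact permutation p = 0.12, adjusted p = 0.361) and 0.53 without MCL1 and PCL4. Sesn2 had r = -0.57 (permutation p = 0.0667, adjusted p = 0.2; rho = -0.56, permutation p = 0.0755, adjusted p = 0.256), which was -0.54 within types and -0.29 without those 2 tumours. The remaining 6 genes had r between -0.42 (Aen) and 0.40 (Cdkn1a), with adjusted p of 0.397 to 0.918, and Mdm2 had r = 0.26.

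**Figure D4:**
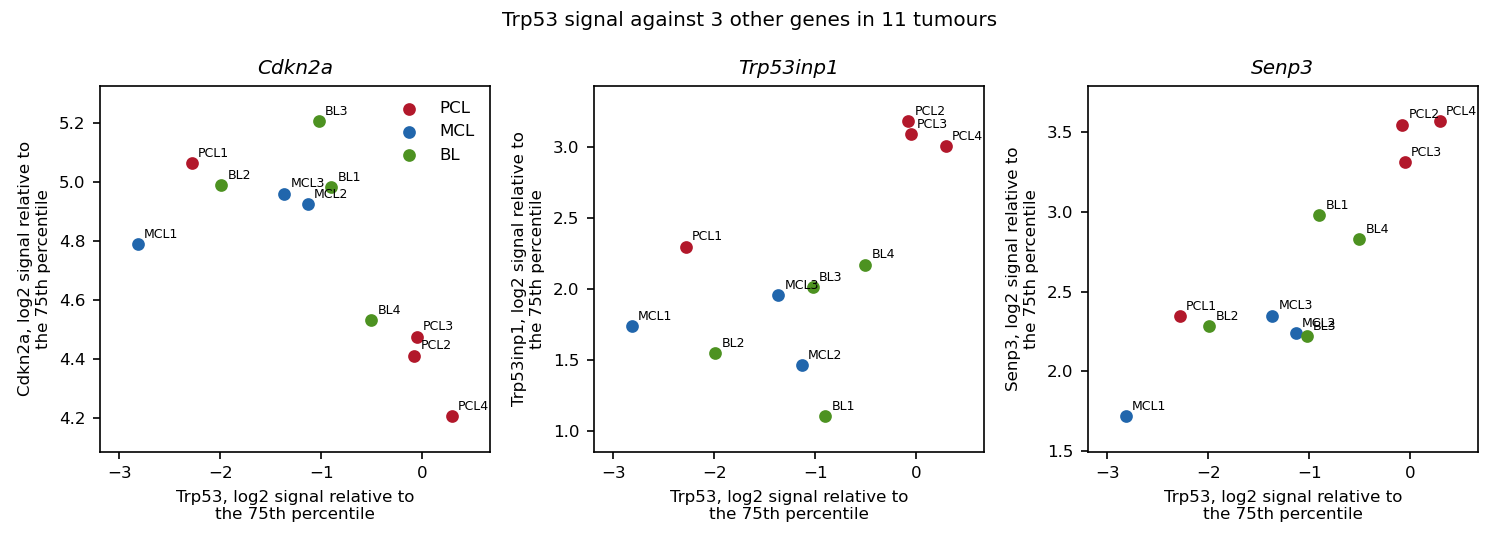
Trp53 (x axis) against Cdkn2a, Trp53inp1 and Senp3 (y axes), all as log2 signal relative to the array's 75th percentile, with 1 labelled point per tumour. The PCL2, PCL3, PCL4 and BL4 points have the highest Trp53 and the lowest Cdkn2a; Senp3, a gene beside Trp53 on the chromosome, rises with Trp53 in all 3 types (r = 0.89).

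Several of the genes beside Trp53 on chromosome 11 varied with it over the tumours. Of 9 listed neighbours 7 could be tested, and their relation to Trp53 was examined after the values had been seen. The list is a small part of the region: of 75 genes within 1 Mb that were well above background on all arrays, 36% had an r over 0.5 with Trp53. This share was 35.5% from 1 to 5 Mb, 16.9% from 5 to 20 Mb, 21.8% beyond on chromosome 11 and 13.5% on other chromosomes. Senp3, which encodes a SUMO protease, was at 2.35, 3.55, 3.31 and 3.57 in PCL, at 1.72, 2.24 and 2.35 in MCL, and at 2.98, 2.28, 2.22 and 2.83 in BL. It was low in PCL1 and lowest in MCL1, as Trp53 was. Its correlation with Trp53 was r = 0.89 (permutation p = 0.00022, adjusted p = 0.00154; Spearman rho = 0.83, permutation p = 0.00265, adjusted p = 0.0186). Within types it was 0.90 (exact permutation p = 0.0142, adjusted p = 0.0496), and without MCL1 and PCL4 it was 0.80. Efnb3, an ephrin gene, had r = 0.82 (adjusted p = 0.00875) and 0.76 within types (adjusted p = 0.0496). Wrap53, which overlaps the first exon of Trp53 on the other strand in mammals, had r = 0.74 (permutation p = 0.0122, adjusted p = 0.0284), but within types its adjusted p was 0.0966. Fxr2 and Eif4a1 each had r = 0.67 (adjusted p = 0.0384), Sat2 0.52 (adjusted p = 0.12) and Polr2a -0.19 (adjusted p = 0.573).

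Between the types, 1 of these 7 neighbours was called, in PCL minus MCL, where 6.78% of all genes were called. Eif4a1, a translation initiation helicase, averaged 6.40 in PCL and 5.63 in MCL, a difference of 0.77 ± 0.18 (adjusted p = 0.0382). Without PCL2, PCL3, PCL4, any 1 MCL tumour, BL3 or BL4 its adjusted p was 0.0504 to 0.11, and it was 0.145 with normexp and 0.125 with the replicate block. Sat2, a gene of the spermidine acetyltransferase family, was well above background in 3 PCL tumours and no BL tumour, and its PCL signal was at least 1.99 times that of BL (adjusted p = 0.106). Senp3 differed by 1.09 ± 0.34 for PCL minus MCL (adjusted p = 0.0798) and 0.62 ± 0.31 for PCL minus BL (adjusted p = 0.339), and Wrap53 by 0.87 ± 0.30 for PCL minus MCL (adjusted p = 0.111) and -0.56 ± 0.30 for MCL minus BL (adjusted p = 0.376). The median difference of the 7 neighbours was 0.85 for PCL minus MCL, 0.52 for PCL minus BL and -0.28 for MCL minus BL, against medians of -0.02, 0.09 and 0.05 over all genes, and both medians against BL are the same with Sat2 at its bound. For comparison, the differences of Trp53 were 1.24, 0.57 and -0.67.

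Each of the 10 genes was also set against the median of the other genes of its own chromosome, a comparison added after the data had been seen. It used genes well above background on all arrays, each centred on its mean over the tumours. Mdm2 gave the highest of the 10 relations, with a Pearson r of 0.90 to the median of 700 genes of chromosome 10 (permutation p = 0.00405, adjusted p = 0.0405; Spearman rho = 0.64, permutation p = 0.041, adjusted p = 0.205). The chromosome 10 median was -0.56 in BL1, the tumour with the least Mdm2, and between -0.06 and 0.17 in the other 10 tumours. Within types r was 0.92 (exact permutation p = 0.0423, adjusted p = 0.409). Without BL1 and MCL2, the 2 tumours farthest from the median of chromosome 10, it was 0.58, and without BL1 alone it was 0.56, so the size of the relation rests on BL1.

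The rule for the genes most like a member, the highest r over the 11 tumours among 15445 genes, named Nt5dc3 (r = 0.95), Smarcc2 (0.93) and Cnot2 (0.93) for Mdm2, and all 3 lie on chromosome 10. The median r of Mdm2 with chromosome 10 genes was 0.41 within 1 Mb, 0.43 from 1 to 5 Mb, 0.52 from 5 to 20 Mb and 0.43 beyond, against -0.02 with genes of other chromosomes. Over all 700 genes of chromosome 10 it was 0.45, and 0.14 without BL1. These genes share each tumour's array, and the values describe the 11 tumours.

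Trp53 had an r of 0.52 with the median of 1264 genes of chromosome 11 (permutation p = 0.107, adjusted p = 0.213; Spearman rho = 0.72, permutation p = 0.017, adjusted p = 0.17). It was 0.40 within types (exact permutation p = 0.19) and 0.84 without BL3 and MCL2. The median r of Trp53 with its chromosome's genes was 0.34 within 1 Mb, 0.24 from 1 to 5 Mb, 0.20 from 5 to 20 Mb and 0.19 beyond, against -0.02 for other chromosomes. With values centred within types these medians were 0.18, 0.24, 0.13, 0.20 and 0.00, with no steady fall by distance. The 3 genes most like Trp53 were Lztr1 (r = 0.94) and Ncbp2 (0.94) on chromosome 16 and a transcript with no gene name (0.93), which lies 1.06 Mb from Trp53 on chromosome 11. Cdkn2a had a median r of 0.13 with the 13 genes within 1 Mb and 0.02 with those of other chromosomes, or 0.30 and 0.05 within types. Its most alike genes were Ago2, Fkbp5 and Sapcd1 (r = 0.94, 0.94 and 0.93). For Cdkn1a they were Abca7 (0.91), Tmem179b (0.89) and Dock2 (0.89).

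The chromosome median also moved beside Aen and Mdm4. The median of 1198 genes of chromosome 7 differed by -0.37 for PCL minus MCL and by -0.31 for PCL minus BL, while Aen differed by -0.44 and -0.88. It was -0.45 in PCL2, -0.10 in PCL3 and -0.27 in PCL4, and 0.03 in PCL1, the PCL tumour with the most Aen. Aen had an r of 0.65 with it (permutation p = 0.029, adjusted p = 0.0966; rho = 0.54, permutation p = 0.0944, adjusted p = 0.305), 0.38 within types and 0.29 without PCL2 and PCL4. Mdm4 had an r of 0.71 with the median of chromosome 1 (permutation p = 0.0167, adjusted p = 0.0837; rho = 0.33), which was -0.26 without PCL1 and PCL3. Trp53inp1 had an r of 0.17 with chromosome 4, whose median differed by 0.00 for PCL minus MCL, and the r was -0.25 within types and 0.76 without BL4 and MCL2. Whether gene copy number had a part in any of these values was not tested.

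**Figure D5:**
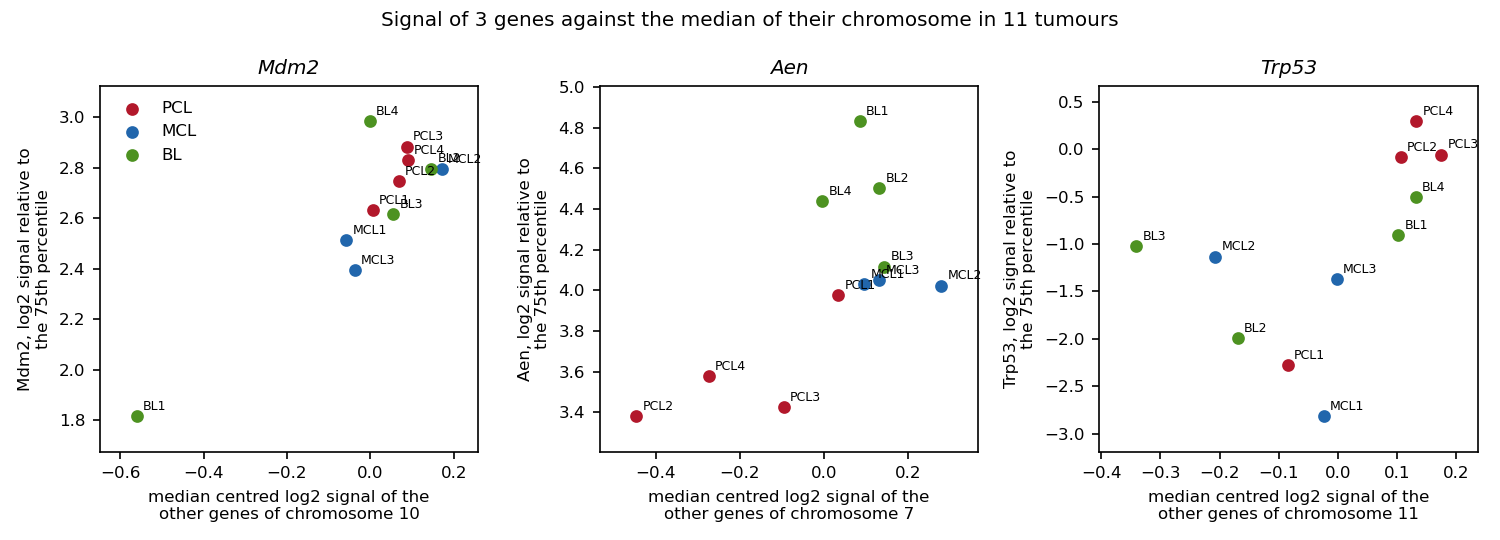
Log2 signal of Mdm2, Aen and Trp53 (y axes) against the median centred log2 signal of the other genes of their chromosome (x axes, chromosomes 10, 7 and 11), with 1 labelled point per tumour. BL1 lies alone at -0.56 for chromosome 10 with the lowest Mdm2, and PCL2, PCL3 and PCL4 lie at the low end for chromosome 7 with the lowest Aen.

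Further p53 targets were counted in the same way. Of 13 listed targets of cell death, 11 passed the filter and 0 were called in any comparison, with 5 higher and 6 lower in PCL than in MCL, where 6.78% (PCL minus MCL), 0.639% (PCL minus BL) and 6.44% (MCL minus BL) of all genes were called. At an unadjusted p under 0.05 there were 2 in PCL minus MCL (Bax and Ei24, against 24.3% of all genes), 3 in PCL minus BL (Perp, Pidd1 and Ei24, against 17.6%) and 0 in MCL minus BL (against 18.5%). Bax, of the mitochondrial death pathway, was at 2.48, 2.18, 2.59 and 2.45 in PCL, below all MCL and BL tumours, and was 1 of 11 whose groups did not overlap in PCL minus MCL, against 23% of all genes. Pmaip1, the BH3-only gene Noxa, averaged 0.12 in PCL, -1.04 in MCL and -0.10 in BL, and PCL minus MCL was 1.16 ± 0.61 (adjusted p = 0.275), with -0.94 ± 0.61 for MCL minus BL (adjusted p = 0.48). Phlda3 had the largest difference of PCL minus MCL in this list, 1.47 ± 0.73 (adjusted p = 0.253), and 1.25 ± 0.68 for PCL minus BL (adjusted p = 0.38). It was well above background in 4 PCL, 2 MCL and 3 BL tumours, so both differences rest in part on values within the background. Perp, a desmosomal gene of p53-dependent apoptosis, had the largest difference of PCL minus BL, 1.87 ± 0.84 (adjusted p = 0.284), but was well above background in only 3 PCL tumours, 1 MCL tumour and 1 BL tumour. The median difference was -0.10 for PCL minus MCL, 0.22 for PCL minus BL and 0.02 for MCL minus BL, against -0.02, 0.09 and 0.05 over all genes.

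Of 19 tested targets of arrest, repair and metabolism, 0 were called in the 3 comparisons, against the same 6.78%, 0.639% and 6.44% of all genes. At an unadjusted p under 0.05 there were 3 in PCL minus MCL (Gadd45a, Rrm2b and Tap1), 4 in PCL minus BL (the same genes and Tigar) and 1 in MCL minus BL (Plk2), against 24.3%, 17.6% and 18.5% of all genes. Every PCL tumour was above every MCL tumour for 3 of the 19 (Btg2, Rrm2b and Rps27l), and below every BL tumour for 1 (Tigar). No others of the 19 had separate groups in PCL minus MCL or PCL minus BL. Of all genes, 23% and 11.1% had separate groups there, in either direction. Genes given here for their unadjusted p or their separate groups alone were picked after their values were seen. Gdf15, a secreted stress factor, differed by 2.13 ± 1.09 for PCL minus MCL (adjusted p = 0.264) and by 1.79 ± 1.01 for PCL minus BL (adjusted p = 0.399). Gdf15 was well above background in 3 PCL, 2 MCL and 4 BL tumours, so these differences rest in part on values within the background. Plk2, a polo-like kinase, was at -0.23, -0.66, 0.67 and -3.26 in PCL, at 0.31, 2.36 and -0.42 in MCL and at -5.34, 0.23, -2.08 and -2.02 in BL. It ranged widely inside PCL and BL, and MCL minus BL was 3.05 ± 1.29 (adjusted p = 0.241). PCL minus MCL was -1.62 ± 1.29 (adjusted p = 0.477). Tigar, a regulator of glycolysis, differed by -0.97 ± 0.45 for MCL minus BL (adjusted p = 0.296). The list medians were -0.09, 0.01 and -0.07 for PCL minus MCL, PCL minus BL and MCL minus BL.

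Among 22 kinases, cofactors and ligases of p53, Trp73 was the 1 gene called, in PCL minus MCL and MCL minus BL, where 6.78% and 6.44% of all genes were called. Trp73, a gene of the p53 family, was at -2.60, -2.98, -2.64 and -3.02 in PCL, at -2.01, -1.72 and -2.14 in MCL, and at -2.66, -2.78, -2.71 and -2.88 in BL. All 3 MCL tumours were above all others. PCL minus MCL was -0.85 ± 0.18 (adjusted p = 0.0238), and MCL minus BL was 0.81 ± 0.18 (adjusted p = 0.0247). Without PCL2, PCL4, MCL1 or MCL2 the adjusted p of PCL minus MCL was 0.0557 to 0.0799, and without MCL1, MCL2, BL2 or BL4 that of MCL minus BL was 0.0625 to 0.0906. With normexp the differences were -0.38 (adjusted p = 0.577) and 0.38 (adjusted p = 0.885), and with the mean of the probes the adjusted p values were 0.255 and 0.519. The replicate block gave 0.0909 and 0.115. The p53-binding genes Trp53bp2 and Ppp1r13l of the ASPP family had the largest differences of PCL minus MCL, -1.11 ± 0.35 (adjusted p = 0.0859) and -1.16 ± 0.47 (adjusted p = 0.162). Trp53bp2 also differed by 1.04 ± 0.35 for MCL minus BL (adjusted p = 0.122). Ppp1r13l, which inhibits p53, also differed by -1.54 ± 0.43 for PCL minus BL (adjusted p = 0.113), and Hipk2, a p53 kinase, by -0.79 ± 0.26 (adjusted p = 0.163).

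Of 17 tested genes that control Arf or that bind Mdm2 in the nucleolus, Cbx7, a Polycomb protein that represses the Cdkn2a locus, was called. This was in PCL minus MCL and MCL minus BL, where 6.78% and 6.44% of all genes were called. Cbx7 was well above background in the 3 MCL tumours, at -4.28, -4.84 and -3.44, and in none of the PCL or BL tumours. The MCL signal was at least 2.48 times that of PCL (adjusted p = 0.00252) and at least 3.54 times that of BL (adjusted p = 0.00098). In these bounds the dim type is given, on each array, the lowest signal of any probe well above background or the probe's own signal, whichever is higher. With the normexp background correction both calls were lost, and the differences were -0.28 for PCL minus MCL (adjusted p = 0.831) and 0.49 for MCL minus BL (adjusted p = 0.923), under these bounds. Cbx8, a relative, was next, with -1.79 ± 0.48 for PCL minus MCL (adjusted p = 0.055) and 1.43 ± 0.48 for MCL minus BL (adjusted p = 0.125). Cdkn2a itself differed by -0.35 ± 0.23 for PCL minus MCL and by -0.03 ± 0.23 for MCL minus BL, and its relation to Cbx7 was not tested. Npm1, the nucleolar partner of Arf, differed by 0.46 ± 0.15 for PCL minus BL (adjusted p = 0.14). Myc, which induces Arf, was at 5.44, 4.45, 4.21 and 4.41 in PCL, at 4.82, 4.53 and 4.98 in MCL and at 4.35, 5.03, 4.00 and 4.12 in BL, with PCL1 highest.

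Cdkn2b and Mtap, which lie beside Cdkn2a on chromosome 4, were measured in every tumour. Cdkn2b, the gene of the Cdk inhibitor p15, was at -2.47, -1.84, -2.40 and -2.98 in PCL, at -0.04, -1.62 and -0.96 in MCL and at -2.44, -3.10, -1.67 and -1.07 in BL. PCL minus MCL was -1.55 ± 0.51 (adjusted p = 0.0995). Mtap, of methionine salvage, differed by 0.62 ± 0.33 for PCL minus MCL (adjusted p = 0.279). Between MCL and BL the differences were 1.20 ± 0.51 for Cdkn2b (adjusted p = 0.248) and -0.14 ± 0.33 for Mtap (adjusted p = 0.873). Of 15 cell cycle genes, Aurkb, the mitotic kinase aurora B, was called, in PCL minus MCL and MCL minus BL. In these comparisons 6.78% and 6.44% of all genes were called. Aurkb differed by -2.14 ± 0.46 for PCL minus MCL (adjusted p = 0.0265) and by 2.13 ± 0.46 for MCL minus BL (adjusted p = 0.023). The first of these calls was lost when PCL2, PCL3, PCL4 or any 1 MCL tumour was left out (adjusted p = 0.0534 to 0.078), and the second without MCL1, MCL3 or BL4 (0.0581 to 0.0847). With normexp they were -1.10 (adjusted p = 0.188) and 1.17 (adjusted p = 0.36), and the replicate block gave adjusted p of 0.0848 and 0.0918. The other 14 were not called, and Foxm1, a transcription factor of mitotic genes, was nearest, with -2.17 ± 0.43 for PCL minus BL (adjusted p = 0.0583). Foxm1 differed by -1.04 ± 0.47 for PCL minus MCL (adjusted p = 0.207) and by -1.13 ± 0.47 for MCL minus BL (adjusted p = 0.227). Mki67, the gene of the proliferation antigen Ki-67, differed by -0.87 ± 0.28 for PCL minus BL (adjusted p = 0.152).

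The promoters of the members were searched for the p53 half-site, the decamer of which a full p53 response element holds a pair, and for CACGTG, the E-box that Myc binds. Both strands were covered, since both motifs read alike on either strand. RefSeq promoters of build GRCm38.p6, from 250 bases before to 50 after a start, were at hand for 8 of the 10 genes (12 promoters), without Trp53inp1 and Zmat3. The half-site was found in promoters of Aen, Mdm2, Ccng1, Trp53 and Cdkn1a, and in 8.36% of all 32851 promoters. A pair of half-sites with at most 13 bases between them was found in the Cdkn1a promoter, with a spacer of 12 bases, and in 0.0731% of all promoters. CACGTG was found in promoters of Aen and Trp53, and in 7.15% of all. The half-sites are printed in capitals with 10 bases on either side, 5′ to 3′ on the gene's strand.
Cdkn1a, 73 bases before the start (chr17:29090896-29090925, plus strand): tcctgggtggGGACTAGCTTtctggccttc
Cdkn1a, 51 bases before the start (chr17:29090918-29090947, plus strand): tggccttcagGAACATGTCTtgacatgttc
Mdm2, 186 bases before the start (chr10:117710925-117710954, minus strand): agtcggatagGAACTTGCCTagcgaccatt
Aen, 121 bases before 1 start and 11 after another (chr7:78895927-78895956, plus strand): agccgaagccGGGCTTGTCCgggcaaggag
Ccng1, 185 bases before the start (chr11:40755452-40755481, minus strand): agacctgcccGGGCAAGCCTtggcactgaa
Trp53, 75 bases before the start (chr11:69580274-69580303, plus strand): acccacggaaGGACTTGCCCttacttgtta
The CACGTG motifs, in capitals, lay 79 bases before a start of Aen and 11 bases after that of Trp53.
Aen (chr7:78895967-78895996, plus strand): cggcaagggttcCACGTGaaacctgggaaa
Trp53 (chr11:69580357-69580386, plus strand): actttcccctccCACGTGctcaccctggct
Sesn2, Mdm4 and Cdkn2a held neither motif in these windows. Among the genes with a half-site, Aen had r = -0.42 with Trp53, -0.52 with Mdm2, -0.34 with Cdkn1a and 0.55 with Ccng1. The pairs among Trp53, Mdm2, Cdkn1a and Ccng1 had r from 0.04 (Mdm2 and Ccng1) to 0.64 (Mdm2 and Cdkn1a). These values are descriptions over 11 tumours. The most opposed pair among the 10 genes was Trp53inp1 and Aen, at r = -0.88.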

How the data were processed

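RNA of 11 tumours was hybridised to one-colour arrays (0.2 µg of total RNA, Cy3), per the labels. The deposited scanner files hold the processed signal, an intensity on a linear scale, made with Agilent Feature Extraction 10.7.3.1 on build mm9, per the file headers. The authors' deposited value table is in log2 units, found from the data, with its making not given in the sources used here. This table served as an alternative. Unflagged spots of a probe were averaged, log2 was taken, and the array's 75th percentile was subtracted. A probe was kept where at least 3 arrays had it well above background (25296 of 39429), and the brightest probe stood for a gene. Differences were tested with limma 3.58.1 (R 4.3.3), with a mean per type over all 11 arrays and Benjamini-Hochberg adjustment over 20181 genes. A gene was called at an adjusted p under 0.05. Correlations used 100000 permutations of the tumours, or all 3456 permutations within types. The script was tested on simulated data. The number of arrays limits the precision. Named genes were all 10 members, every gene called in a list, the 2 largest differences of each list and the 3 genes most like Trp53, Mdm2, Cdkn1a and Cdkn2a. Outside that rule, Myc, the other tested neighbours of Trp53 and targets given for an unadjusted p or separate groups were chosen after their values were seen. The members and lists were chosen with earlier results of these data known. Listed genes Dram1, Eda2r, Twist1, Tbx3, Dmrta1, Atp1b2 and Shbg were under the filter, and Trp53cor1 was not matched. The alternatives were other background corrections, normalizations, filters, probe summaries and priors, array weights, fits of 2 types, a block and each array left out.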

Additional observations from a re-analysis of the deposited data

Results flagged for a closer look

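Trp53 in PCL1 was at -2.28, against -0.08, -0.06 and 0.29 in the other 3 PCL tumours, and its gap to the nearest of them was 0.855 of the range of the 4, above Dixon's 95% critical value. It was 1 of 20 groups of 4 tumours examined this way over the 10 genes, and chance marks about 1 in 20 groups. PCL1 was also the PCL tumour with the highest Cdkn2a, 5.07, and the lowest Cdkn1a, -5.25, and Trp53inp1, 2.30. Its median over the neighbours of Trp53 on chromosome 11, each centred on its mean, was -0.25, against 0.57, 0.48 and 0.73 in PCL2, PCL3 and PCL4, and its macrophage markers summed to 2.73, against 14.2 to 32.8. The part of these differences in the low Trp53 signal was not tested.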

How the results depend on the processing

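Of the 30 pairwise results of the 10 genes, the call of Trp53inp1 in PCL minus MCL was lost with normexp (1.10), quantile normalization (1.13), the authors' table (1.07), no filter (1.18), 2 types only (1.18) and the replicate block (1.08), and its difference was 1.05 to 1.37 over the arrays left out. Its adjusted p for any difference was 0.119, 0.0581, 0.0646 (median centring), 0.0521, 0.0658 (no filter) and 0.0688 (replicate block), and 0.0174 to 0.121 over the arrays left out. For Aen it was 0.16 (normexp), 0.0545 (quantile), 0.0859 (no filter) and 0.0884 (replicate block), and 0.0203 to 0.126. Array weights called 5 of the 10 genes in PCL minus MCL (Trp53, Cdkn1a, Trp53inp1, Aen and Sesn2) and 2 in PCL minus BL (Trp53inp1 and Aen); median centring called Aen in PCL minus BL, and a filter on all arrays called Sesn2 in MCL minus BL. The calls over all genes in PCL minus MCL, PCL minus BL, MCL minus BL and any difference numbered 205, 12, 63 and 131 with normexp and 407, 57, 345 and 351 with the replicate block. They were 4372, 2203 and 4746 with array weights (MCL minus BL stayed within 1.5 times), 690 and 1010 without a filter (PCL minus MCL and any difference), 749 and 274 with 2 types only (PCL minus MCL and MCL minus BL) and 85 with all arrays above background (PCL minus BL). In MCL minus BL they were 746 with quantile normalization, 304 with median centring and 680 with the authors' table, and in PCL minus BL 468 with median centring, of which 366 were lower in PCL, against 41 of 129. They ran from 328 (without PCL2) to 2439 (without PCL1), 5 (without PCL2) to 1062 (without PCL1), 647 to 1331 and 691 to 2813 over the arrays left out. Median centring shifted the median of all genes by -0.25 in both comparisons with BL, and normexp by 0.20 in PCL minus MCL and -0.17 in MCL minus BL. Signs turned only for differences near 0: Mdm2 to -0.025 in PCL minus BL (median centring) and to -0.24 (median centring) and -0.13 (weights) in MCL minus BL, Cdkn1a to -0.13, -0.15 and -0.088 in PCL minus BL (quantile, median centring, authors), Mdm4 to 0.019 (mean of probes), Cdkn2a to 0.034, 0.012 and 0.026 (normexp, quantile, authors) and Trp53inp1 to -0.24 (median centring) in MCL minus BL. The r of Trp53 turned to -0.11 (mean of probes) and -0.47 (within types) with Mdm4 and to -0.087 (within types) with Zmat3. With an array left out, the ranges that crossed 0 were -0.025 to 0.36 for Mdm2 and -0.39 to 0.48 for Cdkn1a in PCL minus BL; -0.23 to 0.16 for Mdm2, -0.17 to 0.058 for Cdkn2a and -0.19 to 0.16 for Trp53inp1 in MCL minus BL; and r of -0.29 to 0.26 with Mdm4 and -0.028 to 0.29 with Ccng1. For Cdkn2a r was -0.84 to -0.58. The calls of Trp73, Cbx7, Aurkb and Eif4a1 were lost in 27 and kept in 48 cases over the other settings, and lost in 25 and kept in 52 with an array left out. The causes were not tested. The replicate number is the array position: deviations of same-numbered arrays correlated at -0.05 to 0.17, with 3 of 10 pairs over 0.1. Pairs with different numbers were not examined, so these values cannot show what same-numbered samples share. Apart from the changes named with it, the block changed no call of the 10 genes.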
